A study of Homo sapiens with 4 samples.

Results

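The ubiquitin-specific proteases (USPs) are the largest family of human deubiquitinases, and their mRNA was measured here in 786-O cells with and without the tumor suppressor VHL. The members were chosen by name alone: every row of the gene count table whose symbol begins with USP and a digit, with USPL1 left out. This gave 46 of 12912 genes, namely 45 USP genes and USP6NL, a Rab GTPase-activating protein that shares the letters but is no protease. 786-O is a clear cell renal cell carcinoma (ccRCC) line without functional VHL. The control subline, 786-O-Ctrl (genotype wild type, VHL-null), was compared with 786-O-VHL (VHL restoration), which carries a retroviral pBabe-puro vector for HA-tagged human VHL. Both sublines also carry a triple reporter of GFP, luciferase and thymidine kinase, and both were grown in RPMI1640 with serum and penicillin/streptomycin. Each group is 1 subline with 2 RNA-seq libraries. Whether 786-O-Ctrl holds an empty vector, and whether the libraries came from separate cultures, is not given in the sources used here, so the p-values measure only the spread between these libraries, which may be technical.

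Ubiquitin is attached to proteins by E3 ligases and removed by deubiquitinases, and the USPs are cysteine proteases of the second kind. VHL is the substrate receptor of an E3 ligase with CUL2, RBX1 and elongins B and C, known above all for marking the hypoxia-inducible factor (HIF) alpha subunits for degradation. USP20 and USP33 were first described as VHL-interacting deubiquitinases, and USP18 removes the ubiquitin-like protein ISG15 and is itself an interferon-induced gene. Other members act at the proteasome, on histones, at sites of DNA repair, on endosomes and mitochondria, and in p53, TGF-beta and Wnt signaling. mRNA was measured, so nothing below is a protein level or an enzyme activity.

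The libraries held 22141263 and 15714166 counts in 786-O-Ctrl (named here the deeper and the shallower library, since both columns carry the same replicate number). Replicates 1 and 2 of 786-O-VHL held 2807779 and 16114120 counts. The shallowest library was thus 7.89 times smaller than the deepest, and 3 counts correspond to 1.02 CPM (the count relative to the library's total, the usual expression unit) in it and to between 0.142 and 0.199 CPM in the others. All levels below are CPM scaled by the trimmed mean of M values (TMM). VHL stood at 42.9 and 43.9 CPM in 786-O-Ctrl and at 178 and 163 CPM in 786-O-VHL (log2 fold change 1.96, edgeR adjusted p = 2.86e-19), which fits the labels, although the counts cannot separate the vector from the resident gene. Markers of renal epithelium such as PAX8 and KRT8 were present in every library. Of 5 leukocyte markers only CD14 had a row, with 1 to 15 counts, and of 3 endothelial markers only PECAM1, with 1 to 9 counts. In such bulk samples, fewer cells of a type and less RNA per cell cannot be told apart.

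VHL restoration was accompanied by small changes across most of the USP family, more often upward than downward. Of the 45 members tested, 23 rose, 10 fell and 12 did not pass the test at an adjusted p (false discovery rate, FDR) under 0.05 by edgeR's quasi-likelihood F test. That is 73.3% of the members, and 64.5% of all 12335 genes tested were called by the same rule (32.6% higher and 31.9% lower). The members had a median log2 fold change of 0.27, against 0.02 over all genes tested. Summed over the family, USP mRNA made up 2957 and 2940 CPM before and 3053 and 3073 CPM after VHL restoration. The 46th member, USP6, had only 9, 4, 3 and 8 counts and was not tested.

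The split depended on the scaling, on the test and on depth. With library totals alone as the scaling, which shifts the median of all genes by 0.133 on the log2 scale, 32 members were higher and 8 lower. By DESeq2 the counts were 15 higher and 7 lower, and with every library thinned to the shallowest they were 16 and 8. The shares over all genes tested moved as well. Called higher were 41.2% with library totals, 23.2% by DESeq2 and 26.1% after thinning, against 32.6%. Called lower were 25.1%, 25.5% and 26.4%, against 31.9%. The members' median log2 fold change was 0.40, 0.26 and 0.24 in these settings. It was 0.27 without the deeper 786-O-Ctrl library and 0.23 without the shallower one. Without replicate 1 of 786-O-VHL it was 0.26, and without replicate 2 it was 0.24. In all, 19 members (12 higher and 7 lower) were called in the edgeR fit and in each of 11 alternatives. The matching share of all genes tested was not computed, so this count cannot be read as high or low.

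**Figure D1:**
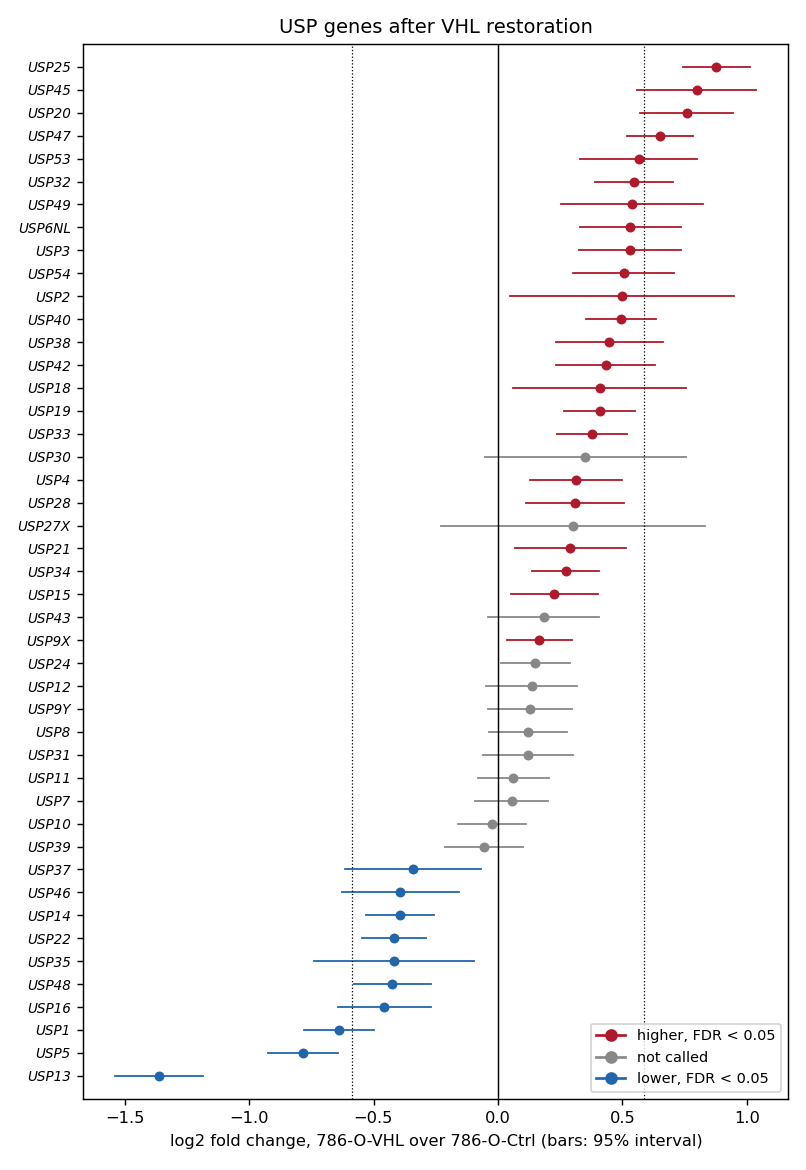
The x axis is the log2 fold change of 786-O-VHL over 786-O-Ctrl for each of the 45 tested members, with bars for the 95% interval and dotted lines at 1.5-fold, and the y axis orders the genes by that value. Red points are the 23 that rose, blue the 10 that fell and grey the 12 not called. USP25 stands at the top with 0.88 and USP13 at the bottom with -1.36.

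Large changes were few in the family. Only 7 members passed FDR < 0.05 with more than a 1.5-fold change, 4 higher and 3 lower, where 34.8% of all genes tested did so (18.5% higher and 16.3% lower). The 4 that rose were USP25, USP45, USP20 and USP47, and the 3 that fell were USP13, USP5 and USP1. No member passed the stricter rule of FDR < 0.01 and more than 4-fold, which 4.46% of all genes met. USP13 alone exceeded 2-fold, 6 members lay between 1.5-fold and 2-fold, and 38 lay under 1.5-fold. Accordingly, 78.8% of the called members changed by less than 1.5-fold. The median absolute log2 fold change was nevertheless close to that of all genes (0.41 against 0.43), and the gap opened in the upper part of the range. With library totals alone, 12 members rather than 4 rose by more than 1.5-fold.

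**Figure D2:**
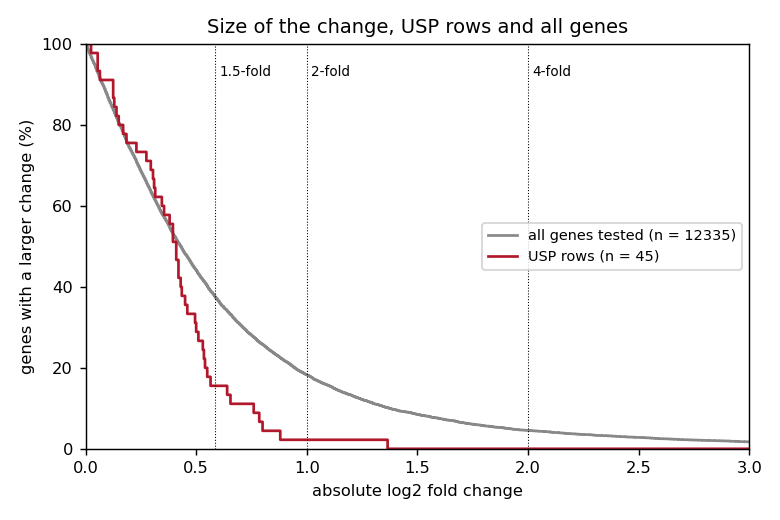
The x axis is the absolute log2 fold change and the y axis the percent of genes with a larger change, for the 45 tested USP rows (red) and all 12335 genes tested (grey), with dotted lines at 1.5-fold, 2-fold and 4-fold. The curves run close together at small changes. The red curve lies under the grey one already somewhat before 1.5-fold and ends at USP13. The upper quartile is 0.53 for the USP rows and 0.82 for all genes.

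Replicate libraries lay close together for this family. Its tested members were also more abundant, with a median of 47.6 CPM against 31.9 for all genes tested. The part of abundance in this closeness was not tested. The median absolute log2 difference between libraries of the same group was 0.0592 for the members between the control libraries and 0.0976 between those with VHL, against 0.0788 and 0.154 for all genes tested. In 37 of the 45 tested members the libraries of the groups did not overlap, and the same held for 80% of all genes tested. With 2 libraries a group, an exact permutation test of any one gene cannot go below p = 0.333, so the calls rest on the edgeR fit, which shares its estimate of the spread across genes.

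Both deubiquitinases named for their binding to VHL were higher in 786-O-VHL, by a rule that called 32.6% of all genes tested higher. USP20 (ENSG00000136878.13, GRCh37 chr9:132596977-132644107, plus strand) stood at 30.3 and 29.6 CPM in 786-O-Ctrl and at 49.2 and 51.3 CPM in 786-O-VHL. The groups did not overlap, and USP20 rose 1.69-fold (log2 fold change 0.76, SE 0.0913, edgeR adjusted p = 3.29e-08). Its relative USP33 (ENSG00000077254.14, GRCh37 chr1:78161672-78225537, minus strand) stood at 76.4 and 79.1 CPM in 786-O-Ctrl and at 100 and 101 CPM in 786-O-VHL. USP33 rose 1.30-fold, a smaller change in a more abundant mRNA (log2 fold change 0.38, SE 0.0684, edgeR adjusted p = 2.16e-05). Both calls held in all 11 alternatives, with USP20 between 0.71 and 0.77 and USP33 between 0.35 and 0.39 when any library was left out.

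Promoter sequences are shown for the 3 members listed under the proteasome and free ubiquitin chains, which all fell, and for USP20 and USP33. They come from RefSeq (GRCh38.p14), 250 bases before to 50 bases after the annotated start, and are written along the strand of the gene. Capitals mark the HIF core, ACGTG or GCGTG, which appears as CACGT or CACGC when it lies on the opposite strand. The windows are chr12:6851900-6852199 (plus) for USP5, chr3:179652790-179653089 (plus) for USP13, chr18:158307-158606 (plus) for USP14, chr9:129835208-129835507 (plus) for USP20 and chr1:77759803-77760102 (minus) for USP33.

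USP5: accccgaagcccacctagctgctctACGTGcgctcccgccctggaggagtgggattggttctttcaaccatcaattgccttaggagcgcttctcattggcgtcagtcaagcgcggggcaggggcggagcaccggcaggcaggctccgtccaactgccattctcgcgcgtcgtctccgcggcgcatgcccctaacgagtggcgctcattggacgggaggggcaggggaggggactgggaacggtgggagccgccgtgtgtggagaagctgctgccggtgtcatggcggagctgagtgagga

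USP13: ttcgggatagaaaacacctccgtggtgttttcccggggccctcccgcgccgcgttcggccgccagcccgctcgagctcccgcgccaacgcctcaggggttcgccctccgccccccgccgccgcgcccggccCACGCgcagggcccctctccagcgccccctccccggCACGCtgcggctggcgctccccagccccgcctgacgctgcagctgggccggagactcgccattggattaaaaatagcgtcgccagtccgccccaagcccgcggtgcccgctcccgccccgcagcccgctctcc

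USP14: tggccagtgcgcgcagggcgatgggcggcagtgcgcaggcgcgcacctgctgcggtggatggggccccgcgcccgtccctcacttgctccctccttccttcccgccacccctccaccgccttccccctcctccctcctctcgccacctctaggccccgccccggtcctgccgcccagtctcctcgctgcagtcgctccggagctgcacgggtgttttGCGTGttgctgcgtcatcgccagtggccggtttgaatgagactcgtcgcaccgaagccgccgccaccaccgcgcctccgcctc

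USP20: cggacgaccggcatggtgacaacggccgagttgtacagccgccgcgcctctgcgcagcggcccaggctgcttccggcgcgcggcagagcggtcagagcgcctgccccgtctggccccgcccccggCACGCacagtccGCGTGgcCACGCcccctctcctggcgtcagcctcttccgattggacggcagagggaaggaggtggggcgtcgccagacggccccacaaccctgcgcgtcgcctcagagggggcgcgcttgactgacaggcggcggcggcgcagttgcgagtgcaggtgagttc

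USP33: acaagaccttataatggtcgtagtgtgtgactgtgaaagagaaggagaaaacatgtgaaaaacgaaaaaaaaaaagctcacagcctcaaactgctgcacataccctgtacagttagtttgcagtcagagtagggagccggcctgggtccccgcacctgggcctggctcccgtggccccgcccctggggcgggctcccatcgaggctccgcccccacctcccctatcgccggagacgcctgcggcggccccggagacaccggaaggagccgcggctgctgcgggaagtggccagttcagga

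The letters of the HIF core occurred once in the USP5 and USP14 windows, 2 times in that of USP13, 3 times in that of USP20 and not in that of USP33. Such short motifs are common: ACGTG or GCGTG on either strand was found in 48.4% of all 35116 promoter windows of this length and in at least 1 window of 70.3% of 9755 genes tested. Of the 46 members 37 had a window, and 31 of these 37 (83.8%) held the core in at least 1. It was present in all 8 of the members with a window that fell and in 15 of the 20 that rose. The core of the interferon-stimulated response element and the E2F elements TTTCCCGC and TTTGGCGC, searched on both strands, were in no window of the 37 members, against 3.83% and 4.51% of the genes tested and 3.57% and 2.27% of all windows. USP18 had no window. A match is a string of letters and was not tested as a binding site, and the HIF core overlaps the E-box letters CACGTG.

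USP18, the ISG15 protease, rose little while the genes that attach ISG15 rose more. USP18 (ENSG00000184979.9, GRCh37 chr22:18632885-18660164, plus strand) had 194 and 127 counts in the control libraries, or 9.21 and 8.44 CPM. After VHL restoration it had 33 and 201 counts, or 11.2 and 11.9 CPM. The groups did not overlap, but the gap between them was small and the counts low. The log2 fold change was 0.41 (SE 0.169, edgeR adjusted p = 0.0366), just inside the threshold. This call was lost in 5 of 11 alternatives (DESeq2, thinning to equal depth, and without either 786-O-Ctrl library or 786-O-VHL replicate 2), with adjusted p from 0.00654 to 0.362 over the alternatives. Reads of its near-identical copy USP41, which was not analysed here, could also be counted under USP18.

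By contrast, all 5 genes of ISG15 conjugation rose by edgeR, and their median log2 fold change was 1.02. Over all genes tested, 32.6% rose. ISG15 itself stood at 58.0 and 56.7 CPM in 786-O-Ctrl and at 106 and 121 CPM in 786-O-VHL (log2 fold change 1.02). UBE2L6, the E2 enzyme for ISG15, changed by 1.39 and HERC5, its main E3 ligase, by 1.19 on the log2 scale. USP18 is commonly counted among the interferon-stimulated genes, and 15 of 18 tested genes of a type I interferon response list rose while 2 fell, with a median of 1.43. The largest increases were those of RSAD2 (3.07), OASL (2.27) and IFIT2 (1.93), and the largest decrease was that of OAS3 (-0.92). At 0.41, USP18 changed less than each of the 5 conjugation genes. Their difference from USP18 was not tested.

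**Figure D3:**
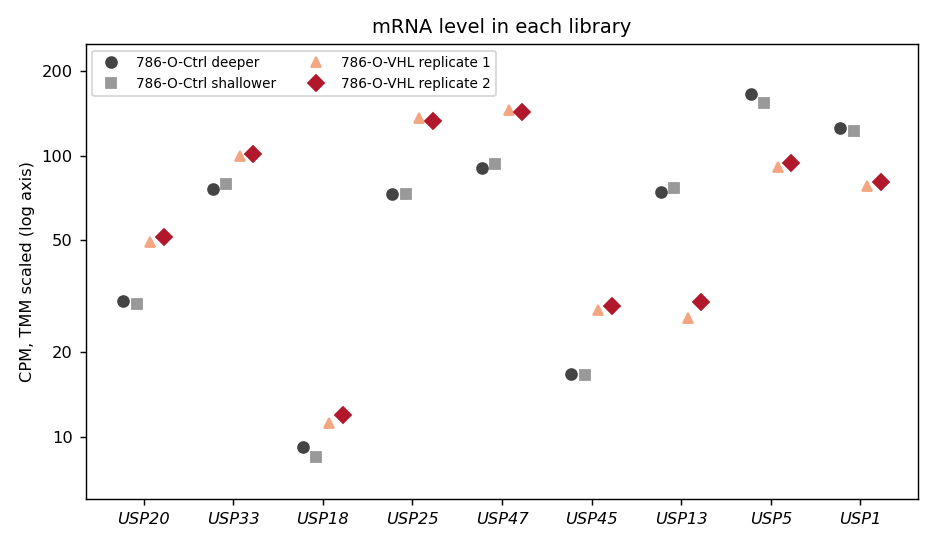
The y axis is the TMM-scaled CPM on a log axis and the x axis lists USP20, USP33, USP18 and the other members that passed FDR < 0.05 with more than a 1.5-fold change. Each point is 1 library: dark circles and grey squares are 786-O-Ctrl, light triangles and red diamonds 786-O-VHL. For all 9 genes the libraries of the groups do not overlap, from USP18 near 10 CPM to USP5 at 167 CPM. The same held for 80% of all genes tested. All but USP33 and USP18 passed the 1.5-fold rule on these same libraries, so their separation is no further evidence.

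USP5, USP13 and USP14 were listed together under the proteasome and free ubiquitin chains, and all 3 fell. Over all genes tested, 31.9% fell by the same rule. That list was written by hand with earlier results of these data known. USP13 is in it beside its relative USP5, and its activity on free chains was not tested. USP13 (ENSG00000058056.9, GRCh37 chr3:179370820-179522154, plus strand), which deubiquitinates among others the autophagy protein Beclin 1, stood at 74.0 and 76.8 CPM in 786-O-Ctrl and at 26.5 and 30.1 CPM in 786-O-VHL. It fell 2.57-fold, the only change beyond 2-fold in the family (log2 fold change -1.36, SE 0.0861, edgeR adjusted p = 6.75e-14). Its closest relative USP5 (ENSG00000111667.13, GRCh37 chr12:6961312-6975796, plus strand), also called isopeptidase T, takes unanchored ubiquitin chains apart. USP5 stood at 167 and 154 CPM in 786-O-Ctrl and at 91.2 and 94.1 CPM in 786-O-VHL, a 1.72-fold decrease (log2 fold change -0.78, SE 0.0687, edgeR adjusted p = 6.71e-11). Within each group the libraries of both genes differed far less than the groups did.

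USP14, which trims ubiquitin chains on the proteasome, stood at 137 and 139 CPM in 786-O-Ctrl and at 110 and 103 CPM in 786-O-VHL (log2 fold change -0.39). All 3 decreases were called in every alternative. Together the 3 genes gave 371 to 377 CPM before and 227 to 228 CPM after VHL restoration. The proteasome carries deubiquitinases of other families besides USP14. Among them UCHL5 fell from 61.6 and 68.8 CPM to 27.1 and 30.4 CPM (log2 fold change -1.13), and PSMD14, named here after its values were seen, changed by -0.59. PSMD2, the proteasome subunit to which USP14 binds, fell from 867 and 842 CPM to 248 and 244 CPM (log2 fold change -1.80). USP13 shares 2462 of its 15296 exon bases (16.1%) with an unnamed gene on the same strand, ENSG00000288698, which has no row in the table.

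Members tied to DNA repair and replication moved both ways, with 3 higher, 2 lower and 1 not called out of 6. Over all genes tested, 32.6% were called higher and 31.9% lower. USP1 (ENSG00000162607.13, GRCh37 chr1:62901968-62917475, plus strand), which removes ubiquitin from FANCD2 and PCNA, stood at 126 and 123 CPM in 786-O-Ctrl and at 78.0 and 80.7 CPM in 786-O-VHL. It fell 1.56-fold (log2 fold change -0.64, SE 0.0685, edgeR adjusted p = 3.87e-09), and the libraries did not overlap. USP1 is in a Myc target list that the study chose on these libraries, so its membership there is no independent evidence of its direction. Its substrates and neighbours in the Fanconi anemia pathway were also lower, FANCI by -1.40 and FANCD2 by -1.17 on the log2 scale. All 15 genes of a DNA replication list fell by edgeR, with a median of -2.13 (GINS2 -3.28, MCM4 -2.93, FEN1 -2.71). The part of this shift in the USP1 result was not tested.

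Repair enzymes that rose were USP45, USP47 and USP28. USP45 (ENSG00000123552.17, GRCh37 chr6:99880201-99969604, minus strand), which acts on the excision repair nuclease subunit ERCC1, stood at 16.7 and 16.6 CPM in 786-O-Ctrl and at 28.1 and 29.2 CPM in 786-O-VHL. It rose 1.74-fold (log2 fold change 0.80, SE 0.117, edgeR adjusted p = 9.56e-07). USP47 (ENSG00000170242.17, GRCh37 chr11:11862970-11983434, plus strand), which stabilizes the base excision repair polymerase beta, stood at 90.7 and 93.2 CPM in 786-O-Ctrl and at 146 and 143 CPM in 786-O-VHL. It rose 1.57-fold (log2 fold change 0.65, SE 0.0652, edgeR adjusted p = 1.03e-09). Neither gene had overlapping groups. However, 41.4% of the USP47 exon bases (5681 of 13722) lie opposite DKK3, whose own log2 fold change was 0.16. The library kit does not mark strand and the counting is not described in the sources used here, so reads from that stretch cannot be assigned to either gene. USP28, which stabilizes MYC, rose by 0.31 and lost its call by DESeq2 and without the deeper 786-O-Ctrl library. USP37, which acts on cyclin A and at the replisome, fell by 0.34 on the log2 scale with 4 of 11 alternatives losing the call, and USP11, a partner of BRCA2, had a log2 fold change of 0.06 and was not called.

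Of 8 histone deubiquitinases, 4 were higher, 3 lower and 1 not called, and none passed 1.5-fold. Over all genes tested, 64.5% were called and 34.8% were called with more than a 1.5-fold change. USP22, the catalytic subunit of the SAGA module that acts on histone H2B, stood at 348 and 338 CPM in 786-O-Ctrl and at 262 and 254 CPM in 786-O-VHL (log2 fold change -0.42). USP27X, which shares the SAGA adaptor proteins with USP22, had a log2 fold change of 0.30, a 95% interval that spans 0, and only 15 counts in its lowest library. Of these adaptors, ENY2 fell by 0.38 and ATXN7L3 rose by 0.23 on the log2 scale, the latter a call lost in 4 of 11 alternatives.

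Among the enzymes for histone H2A, USP16 changed by -0.46 and USP48 by -0.43, while USP3 changed by 0.53 and USP21 by 0.29. USP42 (0.43) and USP49 (0.54), for which H2B is a described substrate, were higher. Thus enzymes described for the same histone were called in opposite directions. The calls of USP21 and USP49 were each lost in 4 alternatives and that of USP3 in 1, and those of USP16, USP22, USP42 and USP48 held in all 11.

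Of the members placed with signaling, 5 of 6 rose and none fell, where 32.6% of all genes tested rose and 31.9% fell. USP25 (ENSG00000155313.15, GRCh37 chr21:17102301-17252383, plus strand), which acts on TRAF3 and other adaptors of innate immune receptors, showed the largest increase of the family. It stood at 73.2 and 73.0 CPM in 786-O-Ctrl and at 137 and 133 CPM in 786-O-VHL. USP25 rose 1.84-fold (log2 fold change 0.88, SE 0.0665, edgeR adjusted p = 3.24e-12), with libraries that differed by a few CPM within each group. The others moved little: USP4 (0.31) and USP15 (0.23), both described as acting on TGF-beta receptor signaling, USP34 (0.27), which acts on axin, and USP9X (0.17). Apart from USP25 each lost its call in at least 2 alternatives, 5 in the case of USP9X and USP15. USP9Y (0.13) was not called, and because its sequence is nearly the same as that of USP9X, the division of reads between the pair is uncertain.

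Of the 3 deubiquitinases that control p53 and MDM2, 1 rose and none fell, where 32.6% of all genes tested rose and 31.9% fell. USP7, which protects MDM2 and p53, stood at 140 and 136 CPM in 786-O-Ctrl and at 160 and 135 CPM in 786-O-VHL, so the groups overlapped (log2 fold change 0.05). USP10, which acts on cytoplasmic p53 and binds G3BP1, stood at 139 and 138 CPM in 786-O-Ctrl and at 144 and 133 CPM in 786-O-VHL, again overlapping (-0.02). USP2, the least abundant tested USP gene per length, was called higher (0.50, edgeR adjusted p = 0.0478), a call lost in 7 of 11 alternatives. G3BP1, the partner of USP10, fell by 0.94 on the log2 scale.

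WDR48 is the cofactor that activates USP1, USP12 and USP46. It stood at 35.6 and 37.7 CPM in 786-O-Ctrl and at 61.4 and 50.6 CPM in 786-O-VHL, and rose by 0.55 on the log2 scale. None of its 3 enzymes was called higher: USP1 fell, USP46 fell by 0.39 on the log2 scale (a call lost in 4 alternatives), and USP12 had 0.14 and was not called. At the mRNA level the calls of USP1 and USP46 thus went opposite to that of WDR48. USP12 stayed undecided, with a 95% interval from -0.047 to 0.32. By the same rule, 32.6% of all genes tested were called higher and 31.9% lower.

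The remaining groups held few members. On endosomes and the Golgi, USP32 rose by 0.55, although some of its reads may be shared with its near-identical relative USP6, and USP8, which acts on endocytosed receptors, had 0.12 and was not called. The endosomal protein HGS, from the list of partners, fell by 1.29 on the log2 scale. USP19, anchored in the endoplasmic reticulum, rose by 0.41, and USP30, a mitochondrial enzyme that opposes Parkin, had 0.35 with 22 counts in its lowest library and was not called. USP39, a splicing factor without protease activity, had -0.05.

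Of 8 less characterized members 4 rose, where 32.6% of all genes tested did so. They were USP53 (0.56), USP54 (0.51), USP40 (0.49) and USP38 (0.45). USP35 fell by 0.42 on the log2 scale, a call lost in 5 alternatives. USP24 (0.15, edgeR adjusted p = 0.0543), USP43 (0.18) and USP31 (0.12) were not called. USP6NL, matched by its name only, rose by 0.53, and leaving it out gave 22 higher and 10 lower of 44.

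Levels between genes were compared per length, as RPKM, the CPM divided by the exon length in kilobases. That length joins the exons of all transcripts of a gene in the GRCh37 annotation. Ranks and ratios between genes depend on this choice, and the annotation used for counting is not known. In 786-O-Ctrl, USP22 led with 50.6 ± 1.04 RPKM (SD, n = 2), followed by USP5 (43.2 ± 2.31), USP1 (32.2 ± 0.587), USP10 (27.4 ± 0.118) and USP14 (23.1 ± 0.332). In 786-O-VHL, USP22 still led with 38.1 ± 0.890 RPKM, but USP10 (27.3 ± 1.63) came next, then USP5 (24.9 ± 0.546) and USP1 (20.5 ± 0.490). The libraries of USP10 and USP5 did not overlap in 786-O-VHL, at 28.5 and 26.2 against 24.5 and 25.3 RPKM.

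Of the 5 most abundant members in 786-O-Ctrl, 4 fell and USP10 was not called, where 31.9% of all genes tested fell. These 5 were ranked on the control level, which also enters the fold change, so a link of abundance and direction was not tested. Members over 20 RPKM numbered 6 before and 4 after VHL restoration, while the family median was 5.51 and then 6.06 RPKM. USP25 moved from rank 12 to rank 7 of 46, and USP13 from rank 26 to rank 40. USP22 took 12.2% and 12.0% of the summed USP RPKM in the control libraries, against 9.39% and 9.06% with VHL.

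**Figure D4:**
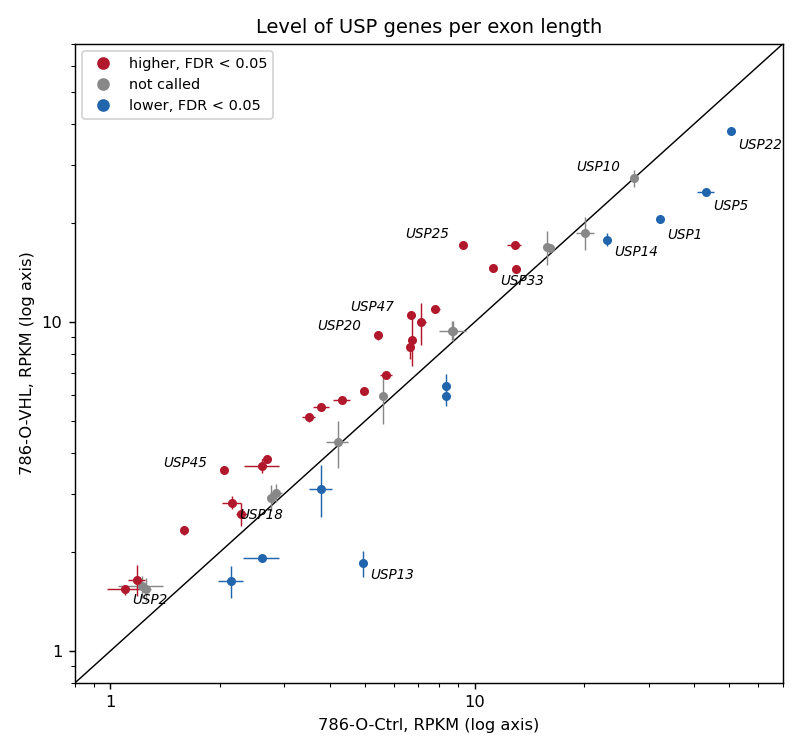
The x axis is the mean level in 786-O-Ctrl and the y axis that in 786-O-VHL, in RPKM on log axes, with bars for the SD of the 2 libraries and a line where both are equal. Red points rose, blue fell and grey were not called. The blue points USP22, USP5, USP1 and USP14 sit at the abundant end under the line, most red points lie above it between 1 and 20 RPKM, and USP13 lies farthest below it.

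Related members often moved by unequal amounts. These pairs were chosen after the values were seen, and the per-length ratios are given as a description. Per length, USP5 was 9.25 and 8.27 times as abundant as USP13 in the 786-O-Ctrl libraries and 14.2 and 12.9 times in the 786-O-VHL libraries. Much of this gap rests on the exon lengths used, 3718 bases for USP5 and 15296 for USP13. In CPM, USP5 stood at 167 and 154 and USP13 at 74.0 and 76.8 in 786-O-Ctrl. USP20 was at 0.498 and 0.469 of the USP33 level in 786-O-Ctrl and at 0.617 and 0.635 in 786-O-VHL. In both pairs the ratios of the groups did not overlap. USP25 was 1.41 and 1.36 times as abundant as USP28 in 786-O-Ctrl, and 1.77 and 2.18 times in 786-O-VHL. USP53 and USP54 kept overlapping ratios, 0.613 and 0.573 in 786-O-Ctrl against 0.582 and 0.632 in 786-O-VHL. So did USP9X over USP9Y at 4.65 and 4.75 against 5.18 and 4.74, a pair whose reads may be shared.

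Outside the family, deubiquitinases of the UCH, OTU, Josephin, JAMM, MINDY and other classes showed no shift in their median. Of 32 tested, 10 rose and 8 fell, and the median log2 fold change was -0.03. Over all genes tested, 32.6% rose and 31.9% fell by the same rule. The largest increases were those of MINDY2 (1.20), ZRANB1 (0.94) and CYLD (0.93), which trims linear and K63-linked chains. The largest decreases were those of UCHL5 (-1.13), TNFAIP3 (-1.09), the NF-kB inhibitor also known as A20, and OTUD3 (-0.76). Both counts were smaller without the deeper 786-O-Ctrl library (5 higher and 5 lower), while dropping the shallower control library left 5 lower and dropping 786-O-VHL replicate 2 left 6 higher. Among 12 tested protein partners of USP enzymes, 8 fell and 2 rose (1 when any library other than 786-O-VHL replicate 1 was left out), with a median of -0.54.

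Of the VHL ligase and HIF genes, EPAS1, which encodes HIF2-alpha, stood at 318 and 330 CPM in 786-O-Ctrl and at 813 and 856 CPM in 786-O-VHL (log2 fold change 1.37). HIF1A changed by 1.35 and ELOB by 0.21, while RBX1 changed by -0.84 and ELOC by -0.17, so that 4 of 8 rose and 2 fell. Over all genes tested, 32.6% rose and 31.9% fell. The call of ELOC was lost in 6 of 11 alternatives. These are mRNA values: by Western blot, the study reported diminished HIF2-alpha protein after VHL restoration. It also states that 786-O does not express HIF1-alpha. Beside these lists, the USP values ran from -1.36 to 0.88.

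**Figure D5:**
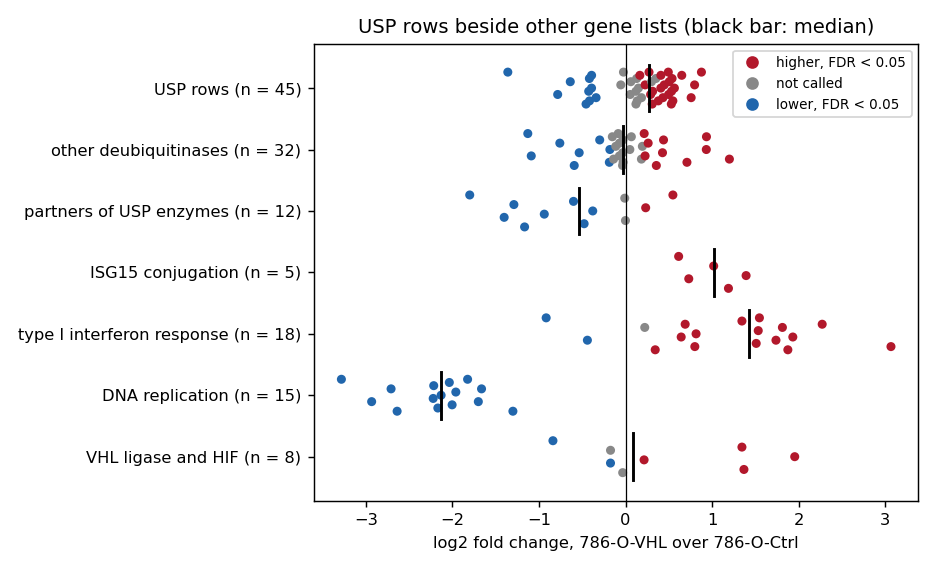
The x axis is the log2 fold change on VHL restoration and each row on the y axis is a gene list, with 1 point per tested gene and a black bar at the median. Red points rose, blue fell and grey were not called at FDR < 0.05. The USP rows have a median of 0.27, the other deubiquitinases -0.03, the partners -0.54, ISG15 conjugation 1.02, the interferon list 1.43 and DNA replication -2.13.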

How the data were processed

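Libraries were made with the Illumina TruSeq RNA Sample Prep Kit from total RNA. The deposited values are raw gene counts from the authors, on hg19, and the submitters' processing notes name CASAVA and STAR. No source used here gives the counting tool, its annotation or its use of strand. Of 12912 genes, 12335 passed edgeR's filterByExpr (minimum count 10). edgeR 4.0.16 in R 4.3.3 fitted all 4 libraries with TMM scaling, no covariate and the quasi-likelihood F test, with Benjamini-Hochberg adjustment over all genes tested (FDR < 0.05). The common biological coefficient of variation was 4.31%. Depth per library ran from 2807779 to 22141263 counts. DESeq2 1.42.0, limma-voom (limma 3.58.1), RLE factors, library totals, other filters, thinning to the shallowest library and leaving out each library were the 11 alternatives. Members and gene lists were chosen with earlier results of these data known. Described in full were USP18, USP20, USP33 and members past FDR < 0.05 and 1.5-fold (up to 8 each way by p), and of other lists at most 3 genes per direction, plus WDR48, ISG15, VHL and EPAS1. FANCD2, ENY2, G3BP1, ELOB, PSMD14 and DKK3 were named beside a member after their values were seen. The scripts were tested on simulated counts. USP26, USP29, USP36, USP41, USP44, USP50 and USP51 were not analysed here. The values of 1 gene of the interferon list are not reported here.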

Additional observations from a re-analysis of the deposited data

How the results depend on the processing

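The 7 members past 1.5-fold, and USP33, kept direction and call in all 11 alternatives. Against 23 members called higher and 10 lower, DESeq2 gave 15 and 7, limma-voom 24 and 10, RLE factors 22 and 10, library totals 32 and 8, no filter 22 and 10, at least 10 counts in every library 24 and 10, and equal depth 16 and 8. Leaving out each library in turn gave 14 to 27 higher and 7 to 10 lower. The share of all genes tested called higher moved too, from 32.6% in the main fit. It was 23.2% by DESeq2, 41.2% with library totals and 26.1% at equal depth. The share called lower was 31.9% in the main fit, and 25.5%, 25.1% and 26.4% in these settings. Both shares also moved when 1 library was left out, in fits that keep 1 library in a group. Counts of called genes without 1 library therefore cannot be read as particular to the family or to a list. The members' median log2 fold change lay between 0.23 and 0.27 without 1 library, against 0.27 in the main fit. Members higher by over 1.5-fold numbered 12 with library totals in place of 4. Other deubiquitinases higher (10) became 5 by DESeq2, 6 at equal depth and 5 to 11 without 1 library, and those lower (8) became 5 with library totals, 5 at equal depth and 5 to 8 without 1 library. Partners higher (2) became 1 by DESeq2 and 1 to 2 without 1 library. VHL ligase and HIF genes lower (2) became 1 by DESeq2, with library totals and at equal depth, and 1 to 3 without 1 library. The changes of sign all fell on members not called: with library totals USP10 took 0.11 and USP39 0.079, and at equal depth USP10 took 0.0356 and USP30 -0.18. Without 1 library, USP10 ran from -0.066 to 0.052, USP39 from -0.24 to 0.0038, USP7 from -0.034 to 0.21, USP31 from -0.14 to 0.20, USP43 from -0.11 to 0.27 and USP9Y from -0.018 to 0.17. The cause was not tested. The replicate block was not run: No paired analysis was possible because both 786-O-Ctrl columns carry the same replicate number. Low counts limit USP2, USP18, USP27X and USP30.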
